A study of Mus musculus with 2 samples.

Results

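A divergent promoter pair consists of 2 genes on opposite strands that are transcribed away from each other from neighbouring 5′ ends. Pairs of protein-coding genes were taken where the 5′ ends lay 1 to 1000 bp apart. In all, 532 pairs met this rule and held 1064 of the 18392 protein-coding genes with a known strand, or 5.79%. No gene stood in more than 1 pair. The distance between the 5′ ends had a median of 101 bp and was at most 200 bp in 389 pairs. As a set for comparison, 13689 single promoters had no other gene start within 2 kb.

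The mark measured was histone H3 trimethylated at lysine 4 (H3K4me3), by chromatin immunoprecipitation and sequencing (ChIP-seq). The cells were mouse embryonic stem cells of the male line E14TG2a.4 from strain 129/Ola, with a labelled age of 3.5 days. Neither a treatment nor a genetic change is given in the labels. A single line was used, and its 2 biological replicates carry the same donor label and form 1 group, so no difference between conditions could be examined. The authors deposited lists of peaks, which are stretches of the genome enriched for the mark. The main list here was their replicated list of 62128 peaks on mm10. Read depth is unknown. Pou5f1, Sox2, Nanog and Zfp42, genes of embryonic stem cells, had a promoter peak with signal values of 69.4, 66.1, 37.7 and 56.7, while Alb and Ins2, genes of liver and pancreas, had none.

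H3K4me3 is laid down by SET1 and MLL complexes around the starts of active and poised genes, above all at promoters rich in CpG dinucleotides. At an active promoter the mark is strongest on the first nucleosomes inside the gene, next to a nucleosome-depleted region where the polymerase assembles. A divergent pair places 2 such assemblies back to back, and genes of basic cell functions such as DNA repair are known to be frequent among such pairs.

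The promoter sequences of 6 pairs show how little DNA separates the 2 genes. They are 5 marked pairs of differing signal and 1 pair without a peak. Each run is the plus strand of GRCm38.p6 (mm10) from RefSeq and holds 300 bases, with the right gene's 5′ end at base 251. Capitals mark matches, on either strand, to short motif letters: GGGCGG for SP1, CCGGAAG for ETS factors and CCAAT for NF-Y. A match describes the letters and shows no binding.
Brca1/Nbr1: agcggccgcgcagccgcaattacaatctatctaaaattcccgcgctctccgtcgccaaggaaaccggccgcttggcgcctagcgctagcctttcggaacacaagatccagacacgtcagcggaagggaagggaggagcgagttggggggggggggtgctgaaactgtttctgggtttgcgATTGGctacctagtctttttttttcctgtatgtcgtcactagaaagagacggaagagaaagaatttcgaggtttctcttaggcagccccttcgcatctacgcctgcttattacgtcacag
Sirt3/Psmd13: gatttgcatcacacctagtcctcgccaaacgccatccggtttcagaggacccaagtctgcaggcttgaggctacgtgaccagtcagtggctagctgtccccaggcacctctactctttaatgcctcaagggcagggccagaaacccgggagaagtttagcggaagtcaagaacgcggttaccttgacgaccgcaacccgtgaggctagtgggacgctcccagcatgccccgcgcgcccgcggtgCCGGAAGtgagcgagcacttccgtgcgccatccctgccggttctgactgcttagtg
Eif2b1/Gtf2h3: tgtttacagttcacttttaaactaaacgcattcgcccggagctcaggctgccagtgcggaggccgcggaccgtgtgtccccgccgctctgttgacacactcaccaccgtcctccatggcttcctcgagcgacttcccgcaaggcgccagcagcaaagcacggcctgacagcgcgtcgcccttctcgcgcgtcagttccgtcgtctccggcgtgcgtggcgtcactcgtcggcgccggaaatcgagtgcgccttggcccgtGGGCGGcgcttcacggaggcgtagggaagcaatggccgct
Cops2/Galk2: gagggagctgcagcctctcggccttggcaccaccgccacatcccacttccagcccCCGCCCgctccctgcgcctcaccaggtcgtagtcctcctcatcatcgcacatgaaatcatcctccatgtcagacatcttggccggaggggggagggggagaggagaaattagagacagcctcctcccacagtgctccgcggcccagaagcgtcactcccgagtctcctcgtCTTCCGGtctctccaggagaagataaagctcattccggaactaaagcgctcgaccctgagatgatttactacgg
Psmb9/Tap1: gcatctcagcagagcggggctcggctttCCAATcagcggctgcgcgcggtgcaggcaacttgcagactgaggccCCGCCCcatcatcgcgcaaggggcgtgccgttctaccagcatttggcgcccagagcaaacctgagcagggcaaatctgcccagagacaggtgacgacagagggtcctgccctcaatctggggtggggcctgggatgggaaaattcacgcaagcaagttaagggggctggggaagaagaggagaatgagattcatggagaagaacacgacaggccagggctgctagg
Best1/Rab3il1: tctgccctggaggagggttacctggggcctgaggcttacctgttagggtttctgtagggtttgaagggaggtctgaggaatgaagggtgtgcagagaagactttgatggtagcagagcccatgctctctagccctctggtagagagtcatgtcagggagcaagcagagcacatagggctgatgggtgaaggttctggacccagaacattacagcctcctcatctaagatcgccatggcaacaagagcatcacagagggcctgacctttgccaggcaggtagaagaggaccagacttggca
The run at Brca1/Nbr1 spans chr11:101551857-101552156. The Brca1 5′ end, for a DNA repair protein, is base 99, and the Nbr1 5′ end, for a receptor of selective autophagy, lies 152 bp from it. At chr7:140882144-140882443 the mitochondrial deacetylase gene Sirt3 starts at base 166, opposite the proteasome gene Psmd13, and the ETS match ends on the Psmd13 start. At chr5:124578898-124579197, Eif2b1 (a translation initiation factor subunit) starts at base 234 and Gtf2h3 (a TFIIH subunit) only 17 bp further on. At chr2:125858859-125859158, Cops2, a subunit of the COP9 signalosome, starts at base 224 opposite Galk2. At chr17:34187306-34187605, Psmb9, an immunoproteasome subunit, starts at base 25 opposite Tap1, a transporter of antigen peptides. The unmarked pair Best1/Rab3il1 lies at chr19:10001419-10001718 with Best1 starting at base 215. Its run holds 1 CpG dinucleotide, whereas the runs of the marked pairs hold 15 to 39.

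A pair counted as marked if any peak touched the stretch from 1 kb left of the left 5′ end to 1 kb right of the right 5′ end. H3K4me3 was present at 521 of 532 pairs, or 97.9% (Wilson 95% interval 96.3 to 98.8%, which covers counting error only). Among all coding genes, 68.5% had a peak within 1 kb of the 5′ end, and among single promoters 61.5% did. Each replicate list marked 521 pairs, with 520 marked in both, 1 in replicate 1 alone, 1 in replicate 2 alone and 10 in neither. Single promoters were marked in 61.9% ± 0.103 (SD, n = 2) of cases in the replicate lists. The gap between pairs and single promoters was thus far larger than the spread between replicates. Convergent neighbours, coding genes whose 3′ ends lay 1 to 1000 bp apart, had a peak at 200 of 485, or 41.2%. That set is defined by 3′ ends and not by starts, so its value is not of like kind with the promoter values above.

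In most pairs a single peak covered both starts. Both 5′ ends lay inside 1 peak in 476 pairs (89.5%, Wilson interval 86.6 to 91.8%). They lay in different peaks in 24 pairs, only 1 of them lay in a peak in 13 pairs, and in 8 pairs a peak stood near but covered neither. Of the 1064 paired 5′ ends, 95.2% were inside a peak, against 62.0% over all coding genes and 54.7% of single promoters. Replicate 1 had 458 pairs with both ends in 1 peak and replicate 2 had 459. The class of a pair was the same in both replicate lists for 498 of 532 pairs.

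The enrichment was strongest inside the genes and not in the stretch between them. The summit, the position of highest enrichment in a peak, was taken for the strongest peak of each marked pair. It lay left of both 5′ ends in 256 pairs, right of both in 257 and between them in 8 (1.54%). In the 513 pairs with the summit left or right of both ends, it lay a median of 285 bp from the nearer 5′ end (25th to 75th percentile 232 to 409 bp). For these pairs the direction into the gene is fixed by that choice. At single promoters the median was 292 bp downstream, and the summit was downstream in 91.8%. That median also takes in the summits upstream of the start, so the 2 medians are not of like kind. The stretch between the 5′ ends is short beside the peaks, since it took a median of 2.62% of the domain where both ends shared a peak.

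**Figure D1:**
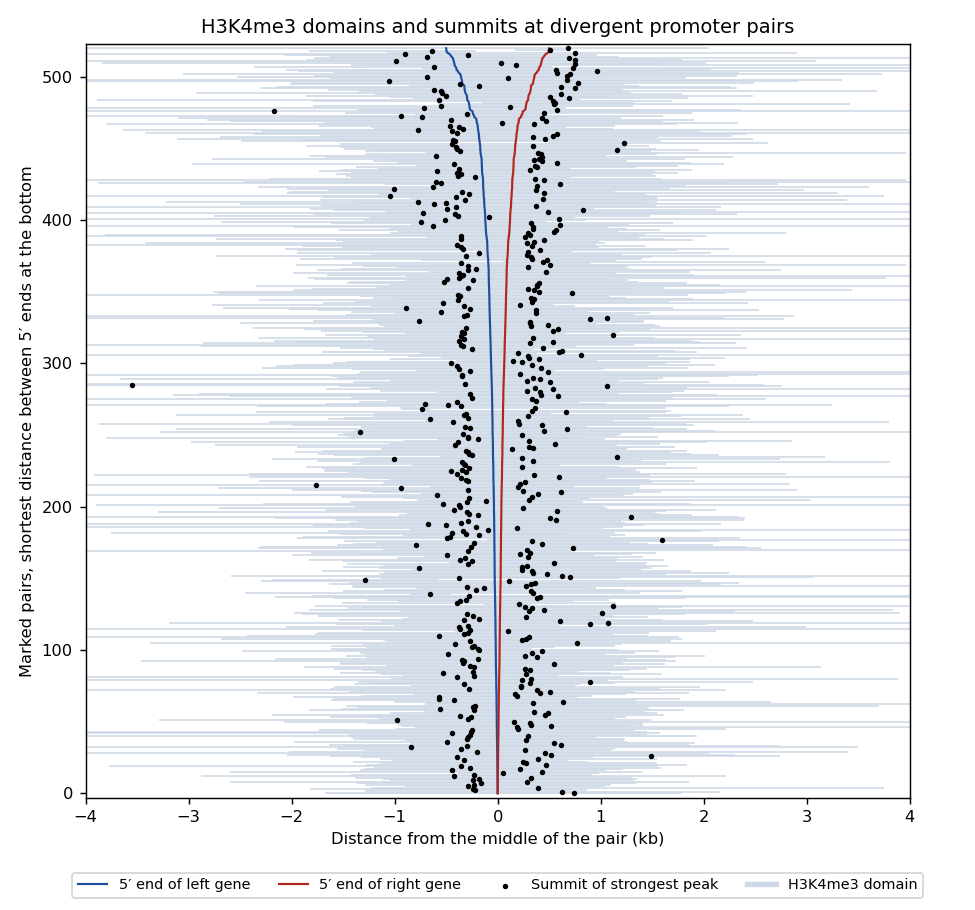
Each row is 1 of the 521 marked pairs, ordered by the distance between the 5′ ends, and the horizontal axis is the distance in kb from the middle of the pair. Pale lines are H3K4me3 domains, coloured lines the 5′ ends and black points the summits (all cropped at 4 kb), which form a column on either side with 8 points between the 5′ ends.

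The 8 pairs with a summit between the ends included 6 of the 44 marked pairs that were 501 to 1000 bp apart. In the 32 pairs of that distance with both ends in 1 peak, the stretch between took a median of 15.8% of the domain. Tst/Mpst, which encodes the related sulfurtransferases rhodanese and mercaptopyruvate sulfurtransferase 847 bp apart, had a signal value of 45.8 in replicate 1 and 43.8 in replicate 2. Cep57l1/Sesn1 (706 bp), where Sesn1 encodes a stress-induced sestrin, had 38.9 and 45.1. Hspa1a/Hspa1l, which encodes Hsp70 heat shock proteins, was among the weakest of all pairs, with 7.10 and 8.55. The other 5 were 2700097O09Rik/Srp54a, Polr3g/Mblac2, Sncg/Mmrn2, Asphd1/Sez6l2 and Atp7b/Alg11. In the last of these, 2 peaks stood 75 bp apart and each covered an end.

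Which gene of a pair held the summit was mostly repeatable. Of 512 pairs with the summit on one side in both replicate lists, 451 (88.1%) had it on the same side. Atm/Npat, where Atm encodes the kinase of the double-strand break response and Npat a coactivator of histone genes, had it on the Atm side in both. Sirt3/Psmd13 had it on the Psmd13 side in both. Wrap53/Trp53, where Trp53 encodes the tumour suppressor p53, had it on the Trp53 side in replicate 1 and on the Wrap53 side in replicate 2. In the replicated list the summit of Wrap53/Trp53 lay 1283 bp from the Wrap53 end, in a peak that covered neither end. Mcm4/Prkdc, for a replicative helicase subunit and a DNA repair kinase, also differed between replicates.

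For widths, neighbouring peaks were merged into 1 domain where the gap was under 1 kb. A pair's domain was 3260 bp wide at the median (25th to 75th percentile 2587 to 4622 bp), against 2231 bp at single promoters. In the replicate lists the medians averaged 3170 ± 18.4 bp (SD, n = 2) for pairs and 2104.5 ± 2.12 bp for single promoters, a difference far beyond the spread. The reach of a domain, from a 5′ end to the domain edge in the direction of transcription, did not show that gap. Reach was not cut at the end of the gene and can pass beyond it. Its median was 1500 bp for 1029 paired genes inside a domain and 1514 bp for 7640 single promoters. This difference of 14 bp is less than the spread between the replicate lists and changed direction between processing settings. On the upstream side, single promoters reached a median of 657 bp. The width of a pair thus held a downstream arm at either end, and that of a single promoter held 1 downstream arm and a shorter upstream one.

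**Figure D2:**
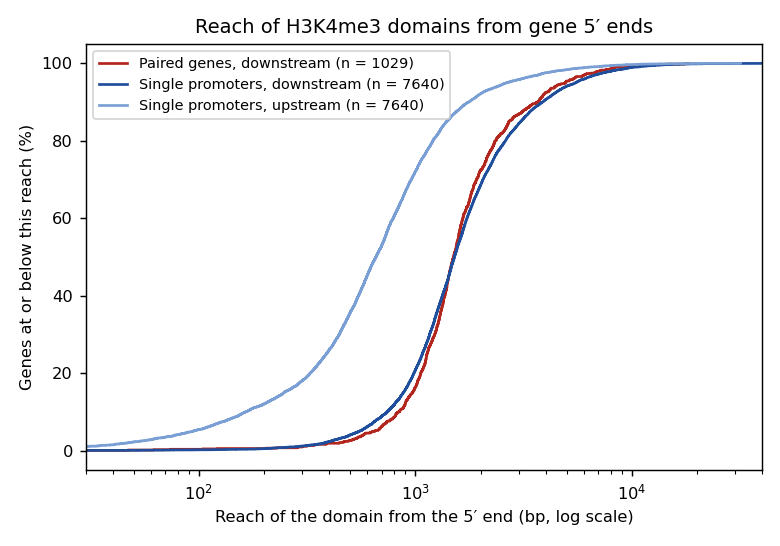
The vertical axis is the cumulative percent of genes, and the horizontal axis is the reach of the H3K4me3 domain from the 5′ end in bp (log scale). The curves of paired genes (n = 1029) and single promoters (n = 7640) in the downstream direction lie close together around 1500 bp, while the upstream curve of single promoters lies to their left with a median of 657 bp.

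The arms of a pair were unequal. Among 512 pairs with both ends in 1 domain, the shorter arm had a median of 1254.5 bp and the longer of 1819.5 bp, and the median ratio was 1.51. Across these pairs, left and right reach had a Spearman rho of 0.249, both being read from the same domain. The summit was on the side of the longer arm in 344 of 504 pairs with a summit on one side (68.3%). Rnf151/Rps2 was the most unequal, with a reach of 74 bp on the side of Rnf151, a ring finger gene. The reach was 6845 bp on the side of Rps2, which encodes a protein of the small ribosomal subunit.

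Most of the widest pairs drew their width from one side of the pair. Spry4/Arhgap26 had the widest domain, 21335 bp, of which 17449 bp lay on the side of Spry4, an inhibitor of fibroblast growth factor signalling. Its signal was 65.3 in replicate 1 and 66.7 in replicate 2. Mapk1ip1/Ppp2r2d followed with 20632 bp, of which 18179 bp lay on the side of Ppp2r2d, a phosphatase subunit. At Cenpt/Thap11 (15233 bp), 14422 bp lay on the side of Thap11, known for its part in embryonic stem cell self-renewal. At Slc39a7/Rxrb (12687 bp), 10098 bp lay on the side of the zinc transporter gene Slc39a7. Fiz1/Zfp524 and Plcb3/Ppp1r14b differed from these, with arms of 6880 and 6720 bp and of 7210 and 6832 bp. A joined domain can take in peaks of genes further on, and their part in these widths was not tested. In all, 16 pairs had a domain of 10 kb or more.

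The signal value is the authors' fold ratio of a peak, and a promoter's signal is the highest value over its stretch. The median of marked pairs was 59.0 (25th to 75th percentile 47.2 to 66.4), against 39.0 at marked single promoters. The replicate lists had medians of 52.1 and 50.5 for pairs (51.3 ± 1.13, SD, n = 2) and of 34.7 and 33.2 for single promoters (34.0 ± 1.12), so the gap was larger than the spread between replicates. In 452 of 521 marked pairs the signal exceeded the single-promoter median. Peaks in the pairs' stretches were 0.934% of all replicated peaks but 109 of the 1000 strongest. The replicated list also holds peaks away from promoters, so these shares do not compare pairs with other promoters. Of the 12605 coding genes with a peak within 1 kb of the 5′ end, 1042 were paired genes. The stretch of a pair is longer and holds 2 starts, which gives more chances for a high value. Within several gene groups the gap was small or had the other sign. Median signals of pairs and of single promoters were 63.0 and 60.4 for mitochondrial ribosomal proteins, 61.4 and 60.5 for oxidative phosphorylation and 67.6 and 64.8 for proteasome genes. They were 62.5 and 62.4 for splicing factors and 54.7 and 62.4 for RNA polymerase subunits. The gap was wider for ciliary genes (62.8 and 49.5) and chaperones (63.8 and 49.2). The ciliary list follows name prefixes and also takes centrosomal genes such as Cep57l1 and Cep76.

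Pask/Ppp1r7, for a PAS domain kinase and a regulator of protein phosphatase 1, led the 10 strongest pairs with 84.7 in the replicated list, 73.7 in replicate 1 and 70.4 in replicate 2. Eif2b1/Gtf2h3 had 70.2 and 73.3 in the replicates, and Emg1/Phb2, for a ribosome biogenesis methyltransferase and a prohibitin, had 70.0 and 74.4. These pairs were high in both replicates. Cops2/Galk2 had 66.8 and 72.8, Hnrnpc/Rpgrip1 71.7 and 70.7, and Mau2/Sugp1, where Mau2 encodes a cohesin loader, 69.7 and 69.2. Zcchc17/Snrnp40, where Snrnp40 encodes a spliceosome protein, was high in replicate 1 with 72.2 and nearer the median in replicate 2 with 52.7. Timm9/2700049A03Rik and Sgsm2/Tsr1 were also among the 10 highest.

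Signals spanned a wide range among 10 pairs with well-known genes. Atm/Npat (61 bp apart) had 58.0 in replicate 1 and 60.4 in replicate 2, and Sirt3/Psmd13 (85 bp) had 57.5 and 60.5. Both stood above the pair median in both lists. Wrap53/Trp53 (98 bp) had 56.0 and 67.4, and Brca1/Nbr1 (152 bp) had 51.4 and 66.8. Replicate 2 was the higher for both of these. At Wrap53/Trp53 the strongest peak of the replicated list covered neither end, while another peak covered both. At Brca1/Nbr1 in replicate 1, only the Nbr1 end lay in a peak. The strongest peak there, with the 51.4, had its summit on the Brca1 side and covered neither end. Pcna/Cds2, where Pcna encodes the sliding clamp of DNA replication, had 45.3 and 44.0. Psmb9/Tap1, from the antigen-processing region, had 20.3 and 17.1, the lowest of the 10 pairs in each list. Mrps12/Sars2, for a mitochondrial ribosomal protein and the mitochondrial seryl-tRNA synthetase, had 59.0 and 51.4. Its domain of 11262 bp reached 9873 bp on the Mrps12 side.

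Across 520 pairs marked in both replicate lists, the signals had a Spearman rho of 0.872, and the higher value exceeded the lower by a median ratio of 1.06. Replicate 1 was the higher in 315 pairs and replicate 2 in 205. The ratio passed 1.5 in 7 pairs. Cks1b/Shc1, for a cell cycle kinase subunit and a signalling adaptor, differed most, with 42.8 in replicate 1 and 20.9 in replicate 2. Rnaseh2a/Prdx2, where Prdx2 encodes a peroxiredoxin, had 42.6 and 22.3. Hscb/Chek2, where Chek2 encodes a checkpoint kinase, went the other way with 35.1 and 57.7.

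**Figure D3:**
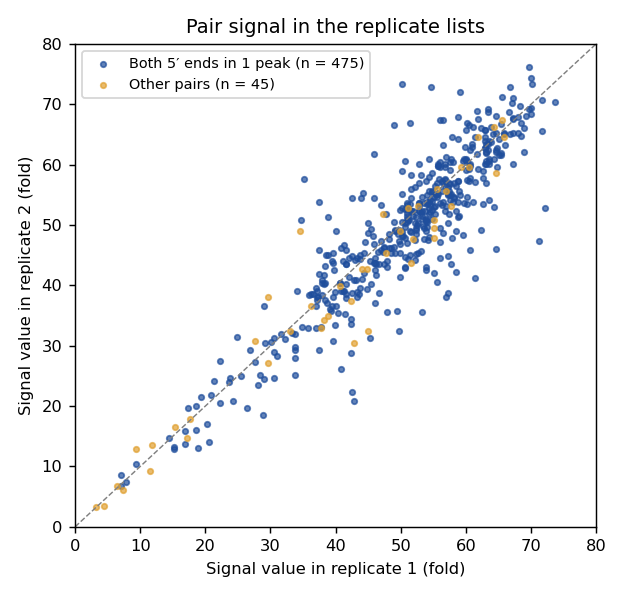
Each point is a pair marked in both replicate lists, with the signal value (fold ratio) in replicate 1 on the horizontal and in replicate 2 on the vertical axis. Blue points have both 5′ ends in 1 peak of the replicated list (n = 475) and orange points do not (n = 45), the dashed line marks equal values, and most points lie near it between 40 and 70.

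The distance between the starts went with how the peaks were divided, but less with signal. Both ends shared 1 peak in 97.1% of 138 pairs that were 1 to 50 bp apart, in 92.9% at 51 to 100 bp and in 90.4% at 101 to 200 bp. The share was 86.8% at 201 to 300 bp, 77.3% at 301 to 500 bp and 69.6% at 501 to 1000 bp. A longer stretch needs a wider peak to cover it, and its part in this order was not tested. The share of marked pairs was between 95.7% and 100% in every distance class, with no order by distance. Median signal was between 57.9 and 59.5 in the 5 classes up to 500 bp and 54.4 in the class of 501 to 1000 bp. Median width rose from 2905 bp in the closest class to 3985 bp in the widest-spaced, though not at each step, while the median reach kept between 1436.5 and 1585 bp.

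Pairs just inside the limit, 801 to 1000 bp apart, were all marked (15 of 15), and 9 had both ends in 1 peak. Just outside it, at 1001 to 1200 bp, 10 of 11 were marked and 4 had both ends in 1 peak. Coding neighbours whose 5′ ends overlapped by up to 1000 bp, which the rule leaves out, were marked in 293 of 302 cases (97.0%), with a median signal of 55.6.

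**Figure D4:**
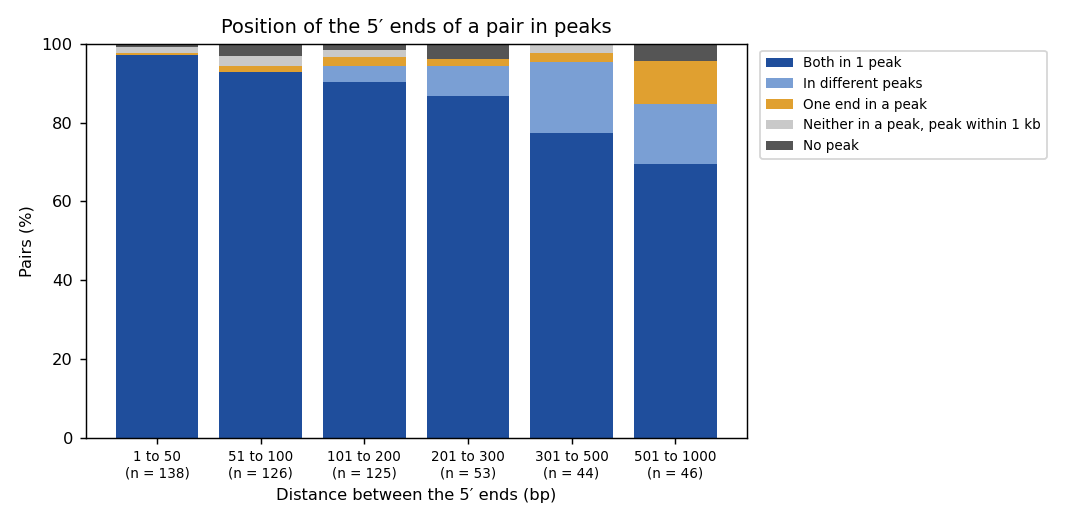
Stacked bars give the percent of pairs in each class of distance between the 5′ ends (bp), by whether the ends lay in the same peak, in different peaks, one in a peak, neither in a peak, or had no peak within 1 kb. The share with both ends in 1 peak falls from 97.1% in the closest to 69.6% in the widest-spaced class.

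Both ends had a peak of their own in 24 pairs, 134 to 979 bp apart. The gap between the peaks had a median of 115 bp. In some the genes were close in height. Safb2/Safb, paralogues that encode scaffold attachment factors, had 68.9 on the Safb2 side and 63.8 on the Safb side. Bag1/Chmp5, for a chaperone regulator and an ESCRT-III protein, had 64.1 and 72.2, and Pdcd10/Serpini1, a pair known for a shared promoter between a vascular gene and the neuronal serpin neuroserpin, had 60.7 and 55.1. In others one peak was far lower. Tas1r1/Nol9, a taste receptor gene beside a ribosome biogenesis gene, had 3.59 on the Tas1r1 side and 74.2 on the Nol9 side. Tbc1d10c/Ppp1ca had 4.31 and 67.6, where Ppp1ca encodes a catalytic subunit of protein phosphatase 1. Parp3/Rrp9 had 6.04 and 48.9. Over the 24 pairs the higher peak exceeded the lower by a median ratio of 1.41.

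In 13 pairs the peak covered 1 start. Ccdc146/Fam185a led with 51.9 in replicate 1 and 47.7 in replicate 2, and only the Fam185a end was covered in each list. Ash2l/Kcnu1 joins Ash2l, a core subunit of the H3K4 methyltransferase complexes, to Kcnu1, a potassium channel gene of sperm, 933 bp apart. Its signal was 29.6 and 38.1 in the replicates, its domain reached 8114 bp on the Ash2l side, and the Kcnu1 end lay outside it. Haghl/Ccdc78 (994 bp) likewise had a domain over the Haghl end alone. Tctn3/Entpd1 (51.6 and 43.8) had the Tctn3 end alone in a peak, but once neighbouring peaks were joined the domain covered both ends. The domain covered both ends in 8 of these 13 pairs, so the class depends on where the authors' peak edges fall.

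In 8 further pairs a peak lay in the stretch and covered neither start. Sgce/Peg10, neighbouring imprinted genes expressed from the paternal allele, had 15.4 in replicate 1 and 16.6 in replicate 2, with a domain across both ends. Tpmt/Kdm1b, where Kdm1b encodes a histone H3K4 demethylase, had 57.0 and 55.7, with its summit 367 bp from the nearer end. Its domain also lay across both ends. At Stat5b/Stat5a, related transcription factors of cytokine signalling, the values were 17.1 and 14.8. In the replicated list the summit lay 1048 bp from the nearer end, in no domain that covered either one. In replicate 1 a peak covered the Stat5a end. The remaining pairs of the class were Gm3417/9030025P20Rik, Cd160/Pdzk1, Fpgt/Lrriq3, Ano8/Gtpbp3 and Rnf123/Mst1. Both ends lay in a domain in 4 of the 8 pairs, so this class too depends on where the peak edges fall.

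In all, 10 marked pairs had a signal under 12. Slc30a3/Dnajc5g was the lowest at 2.73 and was marked in replicate 1 alone. Duox2/Duoxa2, an oxidase of thyroid and gut and its maturation factor, had 7.09 and 6.74, and Mlc1/Mov10l1, where Mov10l1 is known from the male germ line, had 7.83 and 7.49. The 11 pairs without a peak included genes known mainly from other tissues. Plcz1/Capza3 are sperm genes, Prss55/Prss51 serine protease genes, Best1/Rab3il1 includes the bestrophin of retinal pigment epithelium, Olfr181/Olfr183 are odorant receptors and Mup19/Mup-ps16 belong to the major urinary proteins. The others were Fkbp6/Trim50, Gm9112/Dmrtc1b, H2-T22/Gm6034, Ngef/Neu2, Tfpi2/Gngt1 and Zfp558/Mbd3l1. H2-T22/Gm6034 had a peak of 2.85 in replicate 2. In 4 of these pairs another RefSeq start of a partner was marked, as at both promoter-table starts of Fkbp6, a gene of meiosis. In 5 a region of the authors' mm9 list touched the stretch spanned by the 2 GENCODE vM1 5′ ends and 1 kb on either side. Those ends can lie far apart (-63981 bp, right minus left, at Ngef/Neu2), so such a region need not lie at the pair.

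CpG content went with both marking and signal. Promoters were classed as high (HCP), intermediate (ICP) or low CpG (LCP) from the mm9 sequence around the gene's 5′ end in the GENCODE vM1 annotation. That end need not match the mm10 5′ end that defines the pairs. In vM1, 386 of the 532 pairs had 5′ ends 1 to 1000 bp apart. For other pairs a class can describe sequence away from the pair, and the part of this in the values below was not tested. HCP made up 74.2% of paired genes and 30.3% of single promoters. All 335 pairs of 2 HCP genes were marked, as were all 93 of HCP with ICP and all 50 of ICP with ICP. Pairs with an LCP member accounted for every unmarked pair, and 4 of 9 pairs of 2 LCP genes were marked. Within HCP, marking was 99.7% for paired genes and 95.3% for single promoters, a difference much smaller than over all classes.

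A difference in signal was also seen within CpG classes. Pairs of 2 HCP genes had a median signal of 60.5 and HCP single promoters one of 48.6. Median domain width was 3320 and 2569.5 bp, and the median reach was 1511.5 and 1680 bp, so the paired genes had the shorter reach in this class. ICP paired genes had a median signal of 52.6, against 33.7 at ICP single promoters. LCP paired genes had 48.1, against 14.7, but 38 of the 58 LCP genes in pairs had an HCP or ICP partner, whose peak counts for both. The LCP class can also hold genes whose vM1 5′ end lies away from the mm10 one.

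**Figure D5:**
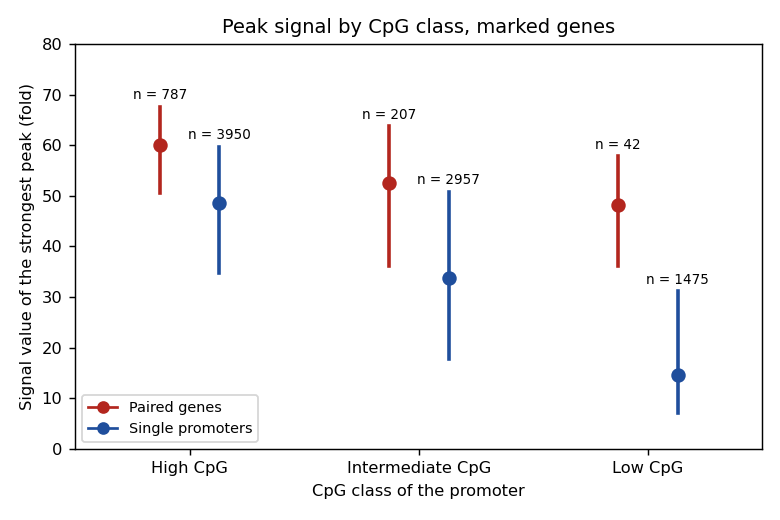
Points are the median signal value (fold ratio) of the strongest peak and bars span the 25th to 75th percentile, for marked paired genes and marked single promoters by CpG class of the promoter. Medians are 60.1 and 48.6 at high, 52.6 and 33.7 at intermediate and 48.1 and 14.7 at low CpG.

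Short sequence motifs were counted in RefSeq promoter windows from 250 bases before to 50 after a start, on both strands. A window was placed exactly on the 5′ end used here for 504 paired genes and 6615 single promoters. Both genes had one in 139 pairs, and such windows share bases where the ends are close. Where the ends lie up to 250 bp apart, a paired window also holds the partner's start, unlike a single window. The part of this in the shares below was not tested. Median GC content was 62.2% for paired windows, 52.7% for single ones and 65% for HCP single ones.

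Among high-CpG windows alone, the ETS letters differed most in share, with 33.8% of 390 paired windows (Wilson interval 29.3 to 38.7%) and 16.6% of 1627 single windows (14.9 to 18.5%). Over all classes they were in 31.3% of paired windows, 7.94% of single windows, 16.6% of HCP single windows and 8.86% of the 32851 windows of the table. The YY1 letters (AAGATGGC) were in 10.7%, 2.52%, 4.00% and 2.75%, in the same order. ZNF143 letters (ACTACAA) were in 6.75%, 3.69%, 2.83% and 3.24%. For these 3 motifs the paired share was above both single sets.

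SP1 letters were in 67.7% of paired, 37.4% of single and 35.7% of all windows. Among high-CpG windows alone the paired share was the lower, at 70.5% (Wilson interval 65.8 to 74.8%) against 78.4% (76.4 to 80.4%) of single windows. NRF1 letters (GCATGCGC) were in 7.54% of paired, 2.60% of single, 6.82% of HCP single and 2.71% of all windows. The E-box CACGTG was in 11.5%, 7.23%, 13.2% and 7.15%, and the cyclic AMP response element TGACGTCA in 4.17%, 2.06%, 4.43% and 1.79%. CCAAT was about equally frequent, in 39.5%, 40.6%, 39.9% and 37.4%. TATAAA was in 4.96% of paired windows, 19.1% of single windows, 5.65% of HCP single windows and 13.6% of all windows.

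Gene groups differed in how many members stood in pairs, against 5.79% of all coding genes. Of 76 mitochondrial ribosomal proteins 21 did (27.6%), of 86 genes of oxidative phosphorylation and its assembly 23 (26.7%), and of 27 RNA polymerase subunits 8 (29.6%). Ndufs6/Mrpl36, 21 bp apart, and Mrpl47/Ndufb5 join a subunit of respiratory complex I to a protein of the mitochondrial ribosome, with signals of 60.2 and 57.5 and of 57.0 and 61.3 in the replicates. All 20 pairs with a mitochondrial ribosomal protein and all 23 of oxidative phosphorylation were marked, beside 97.9% of all pairs. Single promoters of the same groups were marked in 35 of 35 and 41 of 45 cases.

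DNA repair had 23 of 87 genes in pairs (26.4%). All 23 pairs had both ends in 1 peak, beside 89.5% of all pairs. Their median signal was 57.2, near the 59.0 of all marked pairs, and that of DNA repair single promoters was 48.7. They included Palb2/Dctn5 (53.8 and 52.4), where Palb2 encodes the partner of BRCA2, and Xrcc4/Tmem167 (52.9 and 57.0), where Xrcc4 acts in end joining. Xpc/Lsm3, for a damage sensor of nucleotide excision repair, had 61.4 in replicate 1 and 41.1 in replicate 2. Tsc2/Nthl1, a tumour suppressor beside a base excision glycosylase only 4 bp away, had 40.9 and 26.1. Thus replicate 1 was the higher in the last 2.

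Shares were 24.2% for aminoacyl-tRNA synthetases (8 of 33), 22.6% for splicing factors (14 of 62), 20% for ciliary genes (9 of 45) and 18.4% for proteasome genes (9 of 49). All of these pairs were marked, beside 97.9% of all pairs. Single promoters of the 4 groups were marked in 18 of 20, 33 of 34, 26 of 28 and 32 of 33 cases, in the same order. The ciliary pairs, from a prefix list, include Cep57l1/Sesn1 and Cep76/Psmg2, which enter through centrosomal genes. Hnrnpa2b1/Cbx3, for an RNA-binding protein and a heterochromatin protein, had 54.8 and 55.7 in a domain of 8218 bp. Cytosolic ribosomal proteins, a prefix list that also takes the kinase gene Rps6kb1, had 13 of 94 members in pairs (13.8%) and a median domain of 6716 bp, against 3260 bp for all marked pairs. Rps28/Ndufa7 spanned 11389 bp. Chaperones had 9 of 84 in pairs, DEAD box helicases 6 of 52 and replication genes 5 of 44.

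Zinc finger genes stood in pairs about as often as all genes, 22 of 374 (5.88%), and 5 pairs held 2 of them. At Zfp942/Zfp943 the signals were 17.6 and 17.9, while Zfp668/Zfp646 had 63.4 and 69.2. Olfactory receptors had 2 of 1087 genes in pairs and cytochrome P450 genes 1 of 95. None of 58 developmental transcription factors, 39 Hox genes, 43 collagens, 49 keratins and 37 protocadherins stood in a pair under this rule. Of 21 genes of H3K4 methylation 2 did, Ash2l and Setd1b, the latter a methyltransferase paired with Rhof (24.2 and 20.9) in a domain of 14549 bp.

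Core histone genes are known for divergent H2A and H2B pairs, but their names differ between the annotations, and none was a member by name. When strand was also taken through synonyms, 185 pairs were added, of which 179 were marked. They included 13 pairs of 2 histone genes. Of these, 11 were marked, 4 had both ends in 1 peak, and the median signal was 13.2. H2ac20/H2bc21 was the highest with 29.9 and H2bc1/H2ac1 the lowest with 5.75, while H2bc23/H2ac23 and H2ac24/H4bc24 had no peak. Histone genes are near-identical copies, to which short reads may not map uniquely, and the part of mapping in these values was not tested.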

How the data were processed

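H3K4me3 peaks of 2 biological replicates were used as the authors deposited them. Per the labels and the deposited file descriptions, the mm10 lists are 1 per replicate, 1 pooled and 1 replicated. Aligner, caller and settings: not given in the sources used here. The authors' mm10 lists hold a signal value per peak, taken as a fold ratio over control, p-values and q-values as −log10, and a summit. The deposited mm9 list holds a ratio, a p-value and a q-value. All 521 marked pairs had the same signal in the replicated and the pooled list, so the replicated values are those of the pooled list.

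A gene's 5′ end came from the RefSeq table of GRCm38.p6 (mm10), and its strand from the same-named GENCODE vM1 gene on that chromosome, found for 18392 of 21887 coding genes. The 5′-most end need not be the start in use. CpG classes used mm9 sequence, in 500 bp windows between 1300 bp before and 200 bp after the vM1 5′ end of the gene. HCP had a window with observed over expected CpG above 0.75 and GC above 55%, LCP had none above 0.48. Overlap meant 1 shared base. The functions (Python, pandas) were checked on simulated data. Regions are not replicates, so no test was made over them. Shares carry Wilson 95% intervals, and medians stand beside the spread of the replicate lists.

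The pairs, gene lists and motifs were chosen with earlier results of these data known. Named pairs were those with a gene from a list of well-known genes, the 10 highest in signal, the 10 widest, the first 10 without a peak, the 10 highest with 1 end covered, the 5 highest in different peaks and the 5 with the largest replicate ratio. Of the 10 highest in signal, 1 is not reported here. Other pairs in the text were chosen after their values were seen.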

Additional observations from a re-analysis of the deposited data

How the results depend on the processing

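The values below are pairs minus single promoters unless said otherwise. Each replicate list was also used alone, in place of the replicated list. Some alternatives held fewer of the 532 pairs: 335 for high CpG and 139 with both ends at RefSeq promoter-table starts. The mm9 alternative held the 386 pairs whose GENCODE vM1 5′ ends also lay 1 to 1000 bp apart, and used those ends. The gap in the percent marked (36.4 points in the replicated list) was 36.0 to 36.1 in the single replicate lists. It was 35.0 in the pooled list, 36.6 with peaks of q under 1e-05, 36.6 for pairs up to 500 bp apart, 37.7 and 34.3 with stretches of 500 and 2000 bp, 37.1 against single promoters isolated by 5 kb, 33.4 against those isolated from coding starts only and 35.2 in the mm9 list. It was 4.68 among high-CpG promoters, where 95.3% of single promoters were marked, and 43.5 where the 5′ end is also a start of the RefSeq promoter table, an alternative added after seeing the data.

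The percent of pairs with both ends in 1 peak (89.5) was 86.1 to 86.3 in the replicate lists, 89.7 in the pooled list, 89.3 at the stricter q, 91.4 up to 500 bp, 87.9 with strand also from synonyms, 94.0 for high CpG, 98.4 in the mm9 list and 90.6 with promoter-table ends. The percent with a summit between the ends (1.54) was 1.15 to 1.54 in the replicate lists, 0.419 up to 500 bp, 1.19 for high CpG and 2.22 with promoter-table ends.

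The gap in median signal (20.0) was 17.36 to 17.37 in the replicate lists, 20.8 in the pooled list, 19.8 at the stricter q, 20.1 up to 500 bp, 19.7 and 20.4 with the shorter and longer stretch, 19.8 with synonyms, 19.99 and 19.6 with the other isolation rules and 20.6 with promoter-table ends. It was 11.9 for high CpG and 4.41 in the mm9 list, whose ratio has another scale, with medians of 19.4 and 15.0.

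The gap in median width (1029 bp) was 1054 to 1077 in the replicate lists, 1282 in the pooled list, 1046 at the stricter q, 987 up to 500 bp, 1050 with the shorter stretch, 1054 with synonyms, 1061 and 977 with the other isolation rules, 750.5 for high CpG, 971 without joining, 1103 with joining within 3 kb, 1300 in the mm9 list and 1238 with promoter-table ends.

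The difference in median reach (-14 bp) had no stable direction. It was -36 to -8 in the replicate lists, -41 with isolation from coding starts only, -168.5 for high CpG and -64 with joining within 3 kb. It turned to 21 without joining, 65 in the mm9 list and 32.5 with promoter-table ends, and the cause was not tested. The gaps in percent marked, signal and width kept their sign under every alternative run.

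No paired analysis was possible because both replicates belong to 1 group. Depth is unknown, and at promoters that no listed peak touched, weak marking cannot be told apart from its absence. The signal of a pair is the highest of a longer stretch than that of a single promoter. Strand by name left 3495 coding genes out of the main set.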
